A study of Rattus norvegicus with 8 samples.

Results

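Cytosolic ribosomal proteins are the protein components of the ribosome outside the mitochondria. On the array, every probe set with exactly 1 annotated gene symbol of the Rpl or Rps series was taken, together with Rplp0 and Rpsa, and the kinases whose symbols start with Rps6k were left out. This gave 50 probe sets of 44 genes, 30 of the large and 14 of the small subunit, out of 10411 genes with a probe set of 1 symbol. Each gene was represented by its brightest probe set by mean over the 8 samples.

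The samples were the 2 layers of adult rat extraocular muscle, which moves the eye, cut out by laser microdissection. The orbital layer, which faces the bony orbit, had 4 captures, and the global layer, which faces the eyeball, had 4 captures, each hybridised to its own 1-colour array after T7-based amplification of its RNA. The labels give no strain, sex or treatment, call all animals adult, and do not tie captures to animals. The p-values below measure only the spread between these captures, and they tend to be too small if captures of the same layer came from 1 animal. If an animal gave captures of both layers, the fit ignored that pairing, and the direction of the error is not known. All 9 skeletal muscle fibre markers with a single-symbol probe set, among them Acta1, Ckm, Ttn and Myh13, were present, and their summed intensity was 47881 to 69844 in the orbital captures and 53494 to 75546 in the global captures. Of these 9 markers, 1 was called higher in the orbital layer at an adjusted p under 0.05, the oxygen carrier Mb (0.82 on the log2 scale). Another 2 were called lower, the giant sarcomere protein Ttn (-0.70) and the glycogen phosphorylase Pygm (-1.16), and the median over the 9 was -0.34. Of all 9520 probe sets tested, 3.91% were called higher and 3.5% lower. Orbital captures 3 and 4 carry nearly the same title, differing in a suffix, and the labels do not say whether they share a source. In such bulk captures, fewer cells of a type and less RNA per cell cannot be told apart.

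The ribosome reads messenger RNA on its small subunit and joins amino acids on its large subunit, and each ribosomal protein is present once or a few times in every particle. The genes of these proteins are known to be expressed together, and their transcripts carry at the 5′ end a terminal oligopyrimidine (TOP) run, a C followed by further C or T bases (read as U in RNA), through which the growth-control kinase mTOR regulates their translation. In heart and skeletal muscle Rpl3, a protein close to the catalytic centre of the large subunit, has a paralog, Rpl3l, which is known in mouse and human as a form restricted to striated muscle. Work in mouse has described more Rpl3 and less Rpl3l when muscle grows.

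Rpl3 was the ribosomal protein gene that rose in the orbital layer. Its probe set had intensities of 4124, 3756, 5237 and 3062 in orbital captures 1 to 4, against 1712, 2718, 1762 and 2076 in global captures 1 to 4. Every orbital capture lay above every global capture, the highest value being that of orbital capture 3 and the nearest neighbours across the layers orbital capture 4 and global capture 2. Orbital captures averaged 4044 ± 909 and global captures 2067 ± 463 (SD, n = 4 each), a 1.95-fold difference, or a log2 difference of 0.97 ± 0.18 (SE, 95% interval 0.57 to 1.36; adjusted p = 0.00587). Here and below, a log2 difference is orbital minus global on the scale of log2(intensity + 1), and each adjusted p comes from limma, corrected by Benjamini and Hochberg's method over 9520 probe sets. Leaving out each capture in turn gave differences of 0.83 (without orbital capture 3) to 1.11 (without global capture 2) and adjusted p-values of 0.00257 to 0.0262. With the captures of each title prefix alone, 2 against 2, the difference was 0.87 (adjusted p = 0.143) for prefix R2 and 1.07 (0.0782) for prefix R3.

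Rpl3l did not pass and differed in the other direction. It had 2972, 2028, 2380 and 2568 in orbital captures 1 to 4, against 2759, 2553, 3324 and 3868 in global captures 1 to 4. The layers overlapped, since orbital capture 1 lay above global captures 1 and 2, while global captures 3 and 4 lay above all others. Orbital captures averaged 2487 ± 393 and global captures 3126 ± 593 (SD, n = 4 each), a log2 difference of -0.32 ± 0.16 (SE, 95% interval -0.67 to 0.02; adjusted p = 0.268).

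Within each capture, Rpl3l was also set against Rpl3, which shows how the balance of the pair moved but not which transcript was more abundant, because different probes bind with different strength. The log2 difference of Rpl3l minus Rpl3 was -0.47, -0.89, -1.14 and -0.25 in orbital captures 1 to 4, against 0.69, -0.09, 0.91 and 0.90 in global captures 1 to 4. No orbital capture reached the lowest global capture, which was global capture 2. The balance averaged -0.69 ± 0.40 in orbital captures and 0.60 ± 0.47 in global captures (SD, n = 4 each), lower by 1.29 on the log2 scale in the orbital layer (-1.29; exact permutation test, two-sided, p = 0.0286, the smallest that 4 against 4 captures can give; 0.0571 after Benjamini-Hochberg adjustment over the 2 pairs measured, which misses 0.05). Leaving out each capture in turn gave -1.52 to -1.14. The adjusted p could fall below 0.0571 only if the other pair also reached 0.0286, so this pair could not pass 0.05 on its own. The balance contains the Rpl3 difference of 0.97 given above, so it is not a separate result. The other pair, Rpl7l1 minus Rpl7, averaged -4.12 ± 0.26 in orbital captures and -4.33 ± 0.12 in global captures (SD, n = 4 each), a difference of 0.21 (exact permutation test, two-sided, p = 0.2 before and after adjustment). The Rpl7l1 probe set used there differed by 0.31 between the layers, and a second one by -0.07. Rpl3 and Rpl3l are similar in sequence, so some signal of each probe set could come from the other transcript, and how much was not measured.

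**Figure D1:**
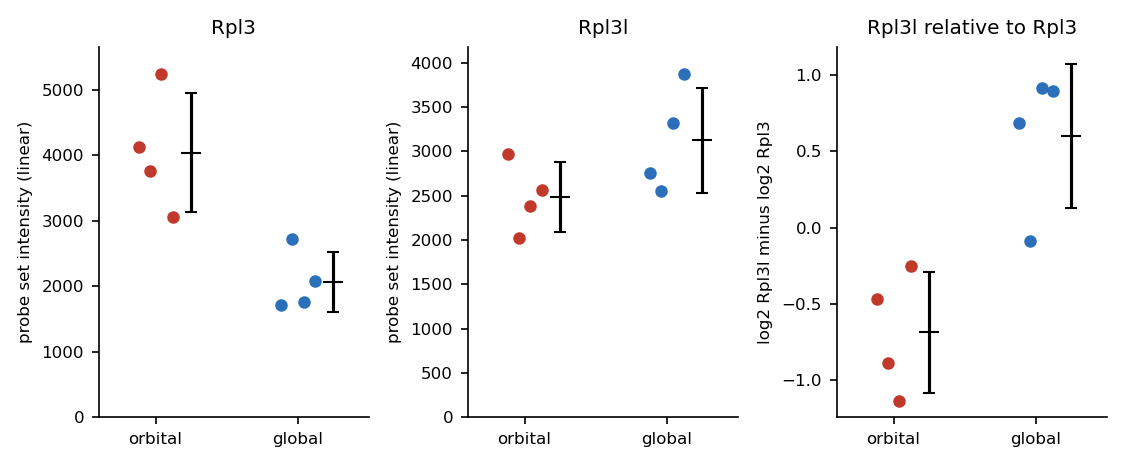
Probe set intensity (linear scale, from 0) of Rpl3 and Rpl3l, and log2 Rpl3l minus log2 Rpl3 within each capture, for 4 orbital and 4 global captures; points are captures, and black bars are the mean and SD. The Rpl3 points of the layers do not overlap (orbital 3062 to 5237, global 1712 to 2718), those of Rpl3l overlap, and the balance of the pair is lower in all 4 orbital captures.

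The DNA before the starts of the pair is shown because Rpl3 was the member that passed and Rpl3l is its paralog, and it is taken from RefSeq on build GRCr8, 250 bases up to the annotated transcript start. Capitals mark matches on either strand to the GC box letters GGGCGG, the Ets letters CCGGAAGT, the TATA box letters TATAAA, the muscle E-box letters CAGCTG and the M-CAT letters CATTCC, and no marked matches overlap. The Rpl3 sequence is chr7:113507991-113508240 on the minus strand and the Rpl3l sequence chr10:14258196-14258445 on the plus strand.
Rpl3: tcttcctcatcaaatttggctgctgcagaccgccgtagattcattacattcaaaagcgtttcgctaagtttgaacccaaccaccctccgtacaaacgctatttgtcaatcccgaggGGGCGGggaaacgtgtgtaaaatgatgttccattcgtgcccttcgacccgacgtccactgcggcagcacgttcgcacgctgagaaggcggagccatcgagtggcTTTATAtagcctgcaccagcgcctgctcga
Rpl3l: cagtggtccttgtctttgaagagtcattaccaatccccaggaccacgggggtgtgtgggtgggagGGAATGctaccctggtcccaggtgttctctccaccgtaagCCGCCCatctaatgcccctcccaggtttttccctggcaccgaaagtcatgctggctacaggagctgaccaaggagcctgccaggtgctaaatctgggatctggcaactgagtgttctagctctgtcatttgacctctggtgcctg
Both windows held a GC box match, Rpl3 also a TATA box match and Rpl3l an M-CAT match, and neither held the Ets or E-box letters. The TATA box match of Rpl3, and the GC box and M-CAT matches of Rpl3l, read on the strand opposite to the gene. A GC box match stood in 24 of the 39 members with a RefSeq window (61.5%) and in 30.5% of all 33469 windows, a TATA box in 15.4% and 12.9%, an M-CAT in 17.9% and 12.1%, the Ets letters in 10.3% and 3.1%, and the E-box letters in 5.13% and 12%. These are matches of letters, not measured binding sites.

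The RNA start itself is shown for 9 members in windows of 12 bases before and 18 bases from the annotated start, because the TOP run is what these transcripts share. Capitals mark the longest run of a C followed by at least 4 bases that are each C or T, on the strand of the gene, beginning within 10 bases of the start. A run that began further out, as in Rpl13a and Rps6, is marked and counted only from its first C within those 10 bases. The run of Rps23, 21 bases long, is cut by the end of its window.
Rpl3: gcgcctgctcgatctctatcggcggcgtgt
Rpl3l: ctctggtgcctggtggggaggtCCCTTCCT
Rplp0: cgcaccgcaCTTCTCTCgccaggcgtcctc
Rpl13a: cttCCTTTCCTaggcggctgccgaagatgg
Rpl22: gtgcgCCCCCCTCCCTTTCTgcctcctctg
Rpl39: tctaatcgcgttCTTCCggcctgtcctttc
Rpl35a: ggtcttgCCTTCCTCTTTCCgccatcttgg
Rps23: gtccttcctgCCTCTCTTCTCTCTTTCTCT
Rps6: gcCTCCTaggcggtcggctgtgtcaagatg
The windows are chr7:113507973-113508002 (minus strand) for Rpl3, chr10:14258434-14258463 (plus) for Rpl3l, chr12:46718373-46718402 (minus) for Rplp0, chr1:104748896-104748925 (minus) for Rpl13a and chr5:168117949-168117978 (plus) for Rpl22. They are chrX:121195879-121195908 (minus) for Rpl39, chr11:81235004-81235033 (minus) for Rpl35a, chr2:23814505-23814534 (plus) for Rps23 and chr5:106420523-106420552 (minus) for Rps6. A C followed by 4 such bases began within 10 bases of the annotated start in 27 of 39 members (69.2%), against 28.9% of all windows. The annotated first base was itself such a C in 11 of 39 (28.2%), against 2.63%, and in some of these, such as Rplp0, Rpl22 and Rpl35a, the run had begun before the start. The window of Rpl3 held no such run, and that of Rpl3l held one that begins 10 bases after the start. Annotated starts can lie some bases from the start used in muscle.

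As a family the ribosomal protein genes differed little between the layers. Of 44 genes, 42 passed the filter on dim probe sets. Of these, 1 rose (Rpl3, 1 of 42), where 3.91% of all 9520 probe sets were called higher in the orbital layer, and 0 fell, where 3.5% of all were called lower, and 7.41% were called in either direction. At an unadjusted p under 0.05 there were 7 members, 6 higher and 1 lower, against 21.6% of all probe sets. The difference was positive for 31 of 42 members and for 53.1% of all probe sets, with a median of 0.10 over members and 0.02 over all probe sets. All 41 members that did not pass differed by between -0.58 and 0.51, which is from 0.67-fold (Rpl39) to 1.42-fold (Rplp0). Of the 42 tested members, 28 differed by less than 0.2 in either direction. A missed threshold does not show that levels were equal, but the 95% interval of the difference lay within 2-fold in either direction for 40 of 42 members, all but Rpl3 and Rpl39, and within 1.41-fold for 23.

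**Figure D2:**
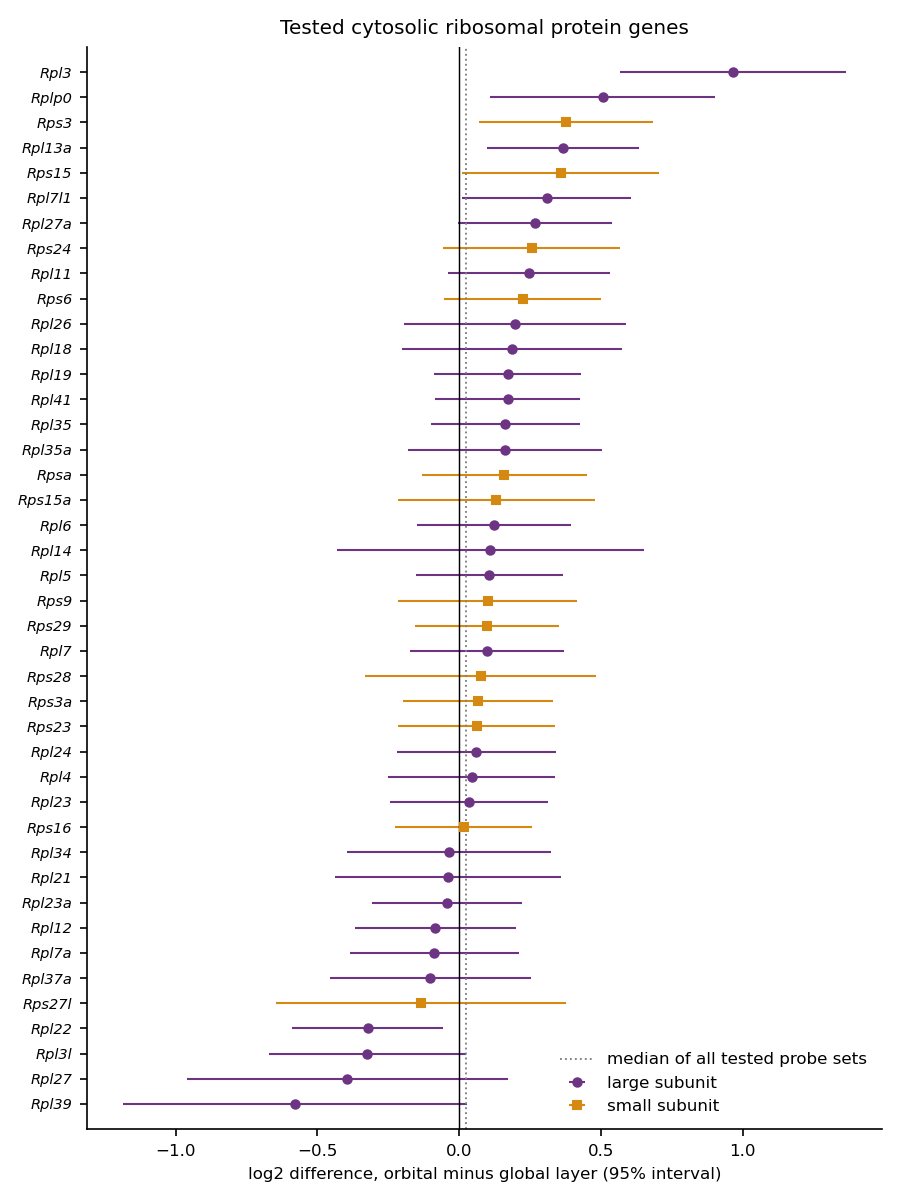
Log2 difference, orbital minus global layer, with its 95% interval for the 42 tested ribosomal protein genes, 4 captures per layer; circles are large and squares small subunit genes, and the dotted line is the median of all 9520 probe sets tested (0.02). Rpl3 stands at 0.97, and the other genes lie between -0.58 (Rpl39) and 0.51 (Rplp0).

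The small shift of the family was not the same in all captures. Each member's log2 intensity was set against its own mean over the 8 captures, and the median over members was 0.12, 0.03, 0.10 and -0.01 in orbital captures 1 to 4, against -0.07, 0.05, -0.06 and -0.08 in global captures 1 to 4. The layers overlapped, since global capture 2 lay above orbital captures 2 and 4. Its members were often high: 25 of 42 lay above their mean there, against 11 or 12 in each of the other 3 global captures and 19 to 32 in the orbital captures. Without global capture 2 the median difference between layers was 0.15, and 2 members passed, Rpl3 and Rps3. Over all alternatives the median stayed between 0.07 and 0.15, and 29 to 34 members had a positive difference. The spread between captures of a layer was small for these genes, with a median SD of log2 intensity of 0.16 among orbital captures and 0.17 among global captures. All tested probe sets had 0.23 among orbital captures and 0.25 among global captures, and the 4041 non-members at least as bright as the members' 10th percentile had 0.20 in each layer. Brightness was not matched, since those non-members had a median intensity of 348, against 1422 for the members.

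**Figure D3:**
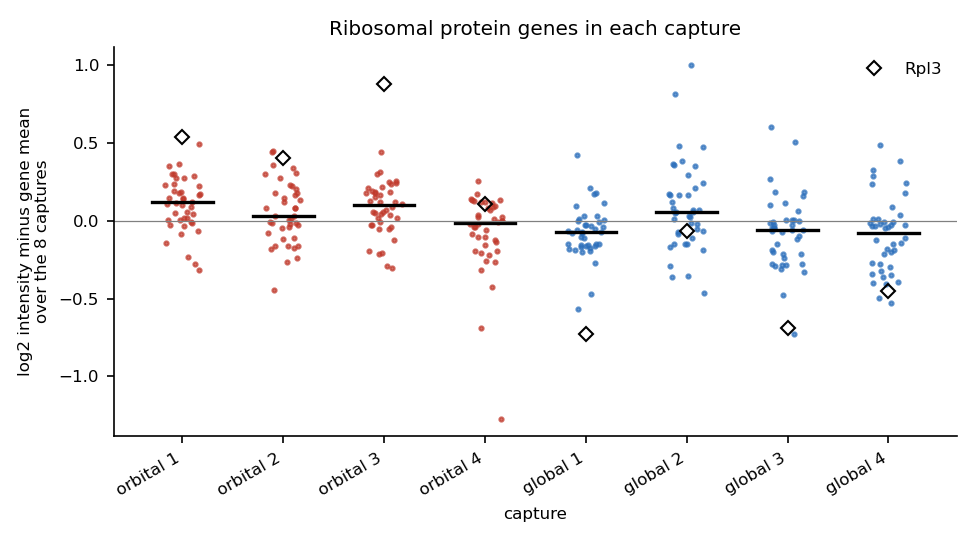
Log2 intensity of the 42 tested ribosomal protein genes minus each gene's mean over the 8 captures; points are genes, black lines the median of each capture, and open diamonds Rpl3. Medians run from -0.01 to 0.12 in the orbital captures and from -0.08 to 0.05 in the global captures, with global capture 2 the highest global capture, and Rpl3 lies above 0 in all 4 orbital and below 0 in all 4 global captures.

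Among the other large subunit genes none passed (0 of 28, where 7.41% of all probe sets were called in either direction), and 4 had layers that did not overlap. Rpl13a, which besides its place in the ribosome is known in human cells to silence inflammatory transcripts, had 4237, 4094, 4303 and 4507 in orbital captures 1 to 4, against 3507, 3724, 3250 and 2869 in global captures 1 to 4. All orbital captures were above all global captures, by a log2 difference of 0.37 ± 0.12 (adjusted p = 0.100). It passed when the arrays were quantile normalized (0.45, adjusted p = 0.0242) or cyclic loess normalized (0.43, adjusted p = 0.0418), and not under the other 20 alternatives. Rpl27a (0.27, adjusted p = 0.239) and Rpl7l1, a paralog of Rpl7 (0.31, adjusted p = 0.215), were likewise above in all orbital captures. A second, dimmer probe set of Rpl7l1 differed by -0.07, with layers that overlapped. Counting Rpl3, 4 of 42 members lay above without overlap, where 7.31% of all probe sets did, and 1 of 42 lay below, where 6.75% did.

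That 1 gene was Rpl22, a protein that the ribosome can do without and that is known in mouse for its part in T cell development. It had 3240, 3447, 2785 and 2874 in orbital captures 1 to 4, against 3984, 3983, 3909 and 3528 in global captures 1 to 4, a log2 difference of -0.32 ± 0.12 (95% interval -0.59 to -0.06; adjusted p = 0.143). All orbital captures lay below all global captures, orbital capture 2 coming nearest to global capture 4. The probe set for its paralog carried several gene symbols and was not named.

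Rplp0, the base of the stalk that recruits elongation factors, had the largest upward difference after Rpl3 among the members tested. Its intensities were 792, 637, 650 and 615 in orbital captures 1 to 4, against 564, 406, 340 and 635 in global captures 1 to 4. Orbital capture 4 lay below global capture 4, so the layers overlapped, and the log2 difference of 0.51 ± 0.18 did not pass (adjusted p = 0.123; 0.0508 to 0.301 on leaving out 1 capture). Rpl39, a very short protein at the exit tunnel for the growing chain, had the most negative difference of the members tested, with 108, 179, 126 and 53.6 in orbital captures 1 to 4, against 176, 147, 149 and 171 in global captures 1 to 4. Orbital capture 2 was the highest and orbital capture 4 the lowest of all 8, and the log2 difference was -0.58 ± 0.28 (95% interval -1.19 to 0.03; adjusted p = 0.256).

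Rpl27 followed at -0.39 ± 0.26 (adjusted p = 0.424), with 791 to 1610 in the orbital and 1017 to 2558 in the global captures. Its highest value was in global capture 2, without which the difference was -0.13. Rpl5 and Rpl11, which carry the 5S RNA into the ribosome and bind the p53 regulator Mdm2, differed by 0.11 ± 0.12 (adjusted p = 0.673) and 0.25 ± 0.13 (adjusted p = 0.312). Rpl19 differed by 0.17 and Rpl7 by 0.10, both without passing.

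Of 13 small subunit genes tested, 0 passed in either direction, where 7.41% of all probe sets did. Of their differences 12 were positive, where 53.1% of all were, and the median was 0.10, against 0.11 over the 29 large subunit genes. The median of their deviations was 0.15, 0.01, 0.18 and -0.02 in orbital captures 1 to 4, against -0.15, 0.08, -0.06 and -0.19 in global captures 1 to 4, so the layers overlapped here too. Rps3, which lies where messenger RNA enters the ribosome, had 1861, 1442, 1729 and 1642 in orbital captures 1 to 4, against 1210, 1640, 1191 and 1136 in global captures 1 to 4. The overlap came from global capture 2 alone, and the log2 difference was 0.38 ± 0.14 (adjusted p = 0.139; 0.50 and adjusted p = 0.0385 without that capture).

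Rps6, the target of the S6 kinases through which growth signals reach the ribosome, had 6400, 5571, 6183 and 5497 in orbital captures 1 to 4, against 4878, 5578, 4507 and 5304 in global captures 1 to 4. The layers overlapped only through global capture 2, and the difference of 0.22 ± 0.13 did not pass (adjusted p = 0.342). Rps15 differed by 0.36 ± 0.16 (adjusted p = 0.219) and Rpsa, also known as a laminin receptor, by 0.16 ± 0.13 (adjusted p = 0.548). Rps23, at the decoding centre, differed by 0.06 ± 0.13 (95% interval -0.22 to 0.34). Rps27l, a paralog of Rps27 that p53 is known to induce in human cells, was the only small subunit gene tested with a negative difference (-0.14 ± 0.24, adjusted p = 0.792), and without global capture 3 the value was 0.01, still not passing.

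The 2 genes that did not pass the filter were Rps4y2, with 26.4 to 34.0 in the orbital and 13.8 to 29.1 in the global captures, and Rpl30, with 23.3 to 37.5 in the orbital and 19.9 to 55.5 in the global captures. Of the 5 genes with more than 1 probe set, the 3 probe sets of Rpsa gave 0.16, 0.16 and 0.17, those of Rps24 0.26 and 0.22, and those of Rpl7 0.10 and 0.07. Those of Rpl7l1 disagreed, with 0.31 and -0.07. A second Rpl14 probe set was too dim to test. Another 34 probe sets carried several symbols, a ribosomal protein among them, and were not named. Of 33 tested, 0 passed, 24 were positive, and their differences lay between -0.38 and 0.38 with a median of 0.08. Ribosomal proteins have many near-identical pseudogene copies, and signal from these cannot be told apart here.

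Of 51 translation factors tested, 1 rose and 3 fell, with a median of -0.12. For this list and those that follow, the counts stand beside the 3.91% of all probe sets called higher and the 3.5% called lower, and single genes are described, not a movement of the list. The 1 that rose was Eef1a1, the elongation factor that brings aminoacyl-tRNA to the ribosome and itself a TOP transcript. It had 4184, 4625, 3955 and 3018 in orbital captures 1 to 4, against 2105, 1978, 1607 and 1359 in global captures 1 to 4, and every orbital capture was above every global one. The log2 difference was 1.17 ± 0.17 (adjusted p = 0.00106). Its paralog of adult muscle and nerve, Eef1a2, differed by 0.11 ± 0.18 (adjusted p = 0.772). Those that fell were the cap-binding protein Eif4e (-0.79 ± 0.13, adjusted p = 0.00241), the scaffold Eif4g3 (-0.91 ± 0.16, adjusted p = 0.00386) and the poly(A)-binding protein Pabpc4 (-0.66 ± 0.14, adjusted p = 0.0101).

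Of 15 other TOP transcripts, 1 rose, the same Eef1a1, and 0 fell, with a median of 0.03. Rack1, a ribosomal protein named otherwise and the only 1 of its list with a single-symbol probe set, differed by 0.03 ± 0.13 (95% interval -0.26 to 0.32), and the sign of this small value turned under 3 alternatives. Of 31 genes of the mTOR and S6 kinase pathway, 1 rose and 5 fell, with a median of -0.08. The S6 kinase gene Rps6kb1 had 334, 325, 258 and 301 in orbital captures 1 to 4, against 610, 594, 658 and 416 in global captures 1 to 4. All orbital captures were below all global ones (-0.89 ± 0.16, adjusted p = 0.00358). Ddit4l, an inhibitor of mTOR signalling, fell as well (-0.74 ± 0.15, adjusted p = 0.00784), and so did the mTOR-binding inhibitor Deptor (-0.57 ± 0.13, adjusted p = 0.0185) and the stress-induced inhibitor Sesn1 (-0.55 ± 0.14, adjusted p = 0.0291). The fifth was Prkaa2, a subunit of the energy sensor AMPK (-0.88 ± 0.23, adjusted p = 0.0312), and the gene that rose was the growth factor Igf1 (0.69 ± 0.18, adjusted p = 0.0367), both with layers that overlapped. Leaving out 1 capture ended the call for Deptor when it was global 1, global 3, orbital 1 or orbital 2 (adjusted p 0.0522 to 0.0604). For Sesn1 it was global 1, 2 or 3 and orbital 1, 3 or 4 (0.0506 to 0.0950), for Prkaa2 global 1, 3 or 4 and orbital 2, 3 or 4 (0.0699 to 0.0965), and for Igf1 global 1, 3 or 4 and orbital 1, 2 or 3 (0.0643 to 0.105).

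Of 56 genes of ribosome assembly, 0 rose and 2 fell, with a median of -0.04. They were Nop56 (-0.63 ± 0.17, adjusted p = 0.0383) and Nhp2 (-0.49 ± 0.14, adjusted p = 0.04999), which belong to the small RNA particles that modify ribosomal RNA. The Nhp2 call was lost on leaving out any 1 of the 8 captures (0.0629 to 0.120) and with the title prefix as a replicate block (0.0575 as a fixed and 0.0561 as a random term), and that of Nop56 without global 2, 3 or 4 and without orbital 2, 3 or 4 (0.0628 to 0.114). The ribosome of the mitochondria is built from other proteins, and of 71 of these 2 rose and 2 fell, with 28 positive differences and a median of -0.11. Mrps6 had 3327, 1922, 2091 and 1364 in orbital captures 1 to 4, against 973, 1118, 628 and 713 in global captures 1 to 4 (1.31 ± 0.24, adjusted p = 0.00513), with no overlap. Mrps25 rose (0.59), and Mrpl50 (-0.62) and Mrpl15 (-0.45) fell. These 3 calls were each lost on leaving out 1 capture, for Mrps25 global 1, global 3, global 4, orbital 1 or orbital 4 (0.0640 to 0.0824). For Mrpl50 it was global 3, global 4, orbital 1, orbital 3 or orbital 4 (0.0562 to 0.0838), and for Mrpl15 any capture but orbital 1 (0.0550 to 0.127).

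**Figure D4:**
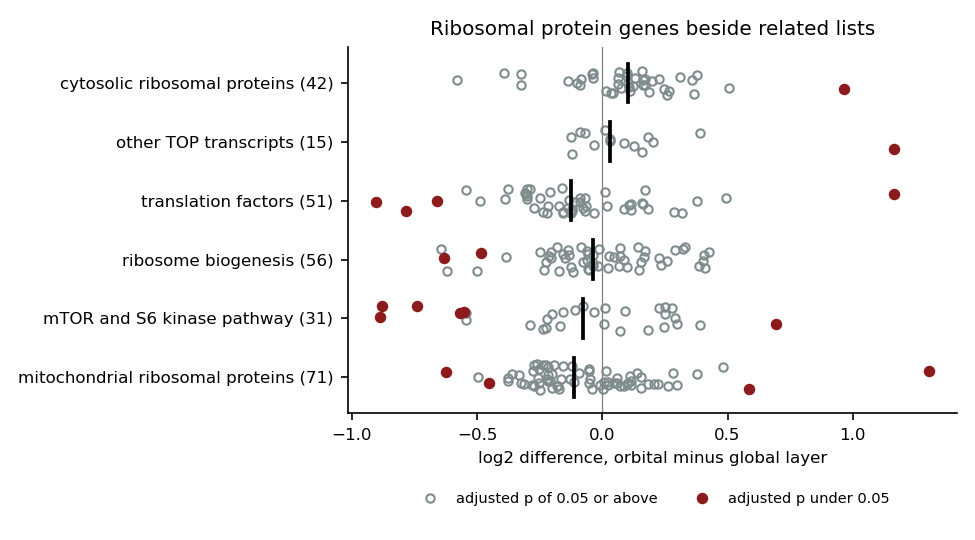
Log2 difference, orbital minus global layer, of the tested genes of 6 lists (number tested in brackets); filled points passed at an adjusted p under 0.05, open points did not, and black lines are list medians. Cytosolic ribosomal proteins have the median furthest to the right (0.10) of the 6 lists and 1 filled point, Rpl3; Eef1a1 stands in 2 lists.

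Markers of other cells and measures of RNA quality stand beside these results, and their part in them was not tested. The summed intensity of 9 fibroblast and matrix markers was 5468 to 8106 in the orbital and 4004 to 7532 in the global captures, with 1 of 9 higher and global capture 2 the highest of its layer. The sum of 6 endothelial markers was 861 to 1373 in the orbital and 818 to 935 in the global captures, with 1 of 6 higher. All 6 differences were positive, with a median of 0.29, where 53.1% of all probe sets were positive. For 3 of the 6 all orbital captures lay above all global captures, where 7.31% of all probe sets did. That of 5 Schwann cell and nerve markers was 2447 to 4763 in the orbital and 1301 to 4493 in the global captures, with 1 of 4 tested higher. That of 7 smooth muscle and pericyte markers was 769 to 924 in the orbital and 1010 to 1067 in the global captures, with 1 of 5 tested lower. The layers did not overlap in this sum, which includes Des, also 1 of the 9 skeletal muscle fibre markers. For 8 macrophage and leukocyte markers the sums were 1262 to 1725 in the orbital and 1308 to 2342 in the global captures, the highest in global capture 2, with 0 of 7 tested called and C1qb dim throughout. The sums of 2 erythrocyte markers (orbital 246 to 708, global 235 to 1094), 4 adipocyte markers (orbital 208 to 324, global 218 to 459) and 3 rod photoreceptor markers (orbital 239 to 1043, global 13.9 to 503) overlapped. Of these, 2 erythrocyte, 1 adipocyte and 2 rod markers were tested, with 0 called. The 2 rod markers tested had a median difference of 1.89, with layers that overlapped and levels that were uneven between captures. No satellite cell marker (0) had a single-symbol probe set. For Gapdh, 3′ signal divided by 5′ signal, a measure that grows where transcripts are truncated, was 6.33, 5.81, 12.9 and 8.64 in orbital captures 1 to 4, against 5.35, 5.64, 5.70 and 6.47 in global captures 1 to 4. The same ratio for actin was 7.87, 9.16, 8.32 and 8.37 in orbital captures 1 to 4, against 9.61, 7.69, 7.93 and 10.7 in global captures 1 to 4, so it overlapped and was highest in global capture 4. The Gapdh ratio was highest in orbital capture 3, which also had the highest Rpl3, and without that capture the Rpl3 difference was 0.83 (adjusted p = 0.0198).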

How the data were processed

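Per the labels, RNA was amplified by a T7 method and run on Affymetrix RAE230A arrays, and the deposited values are linear probe set intensities. The summarising software is not given in the sources used here. The authors' intensities had 2% trimmed means that differed by at most 0.00389%, so they were used as deposited. Of 15923 probe sets, 57 were controls and 9520 of the other 15866 were tested, the others (mean log2 below the 40th percentile, near an intensity of 39.4) being left out. Deposited intensities were put on the log2(intensity + 1) scale and fitted in R 4.3.3 by limma 3.58.1 (lmFit, then eBayes with trend), layer being the only term, with a threshold of 0.05 after Benjamini-Hochberg adjustment over all tested probe sets. Fold changes depend on the pseudocount where values are low. The number of arrays limits the precision.

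Samples were grouped by layer from their source and numbered in accession order. Symbols came from the platform's annotation, in which 12783 probe sets had a single symbol, 312 had several and 2771 lacked one. Through their gene IDs 42 of the 44 members were found in a current RefSeq table, with 0 symbols changed. RefSeq start windows (build GRCr8) were matched for 39 members and not for Rps29, Rpl7, Rpl23a, Rpl30 and Rpl27.

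The named genes were members that passed, the 5 tested members with the largest difference in each direction, paralogs with their partners, Rplp0, Rpsa, Rps6, the 3 brightest and 3 dimmest members, and up to 4 genes with the smallest p in each related list. Prkaa2, Igf1, Eef1a2, Rpl11, Rpl27a, Rpl35a, Rps24 and Rpl14 are named besides, picked with their values known. The skeletal muscle fibre markers Mb, Ttn and Pygm are named because they were called. The members and lists were chosen with earlier results of these data known, and lists were described by counts and medians only. The procedure was tested on simulated data. Alternatives were 2 normalizations, pseudocounts of 16 and 64, other filters and variance models, the title prefix as a block, each prefix alone, array weights, averaged orbital captures 3 and 4, another probe set per gene, and each capture left out.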

Additional observations from a re-analysis of the deposited data

Results flagged for a closer look

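Among 74 sets of 4 values of a named gene in 1 layer, 9 had a capture far from the other 3, by a gap to its neighbour that was a larger share of the whole range than Dixon's 95% critical value, and chance gives about 1 in 20. Of the 8 measures of whole captures, 1 was flagged in the same way. That was the median deviation of the ribosomal protein genes in the global layer, 0.05 in global capture 2 against -0.08 to -0.06 in the other 3 (gap 0.847 of the range). The ribosomal protein genes were Rps3 in the global layer (1640 in global capture 2, 1136 to 1210 in the others; 0.853), Rpl22 in the global layer (3528 in global capture 4, 3909 to 3984 in the others; 0.834), Rpl19 in the orbital layer (5793 in orbital capture 2, 6320 to 6401 in the others; 0.867) and Rpsa in the orbital layer (1758 in orbital capture 4, 2226 to 2290 in the others; 0.881).

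In related lists they were Rack1 in the orbital layer (1734 in orbital capture 2, 2219 to 2308 in the others; 0.844), Eif4e in the orbital layer (279 in orbital capture 2, 217 to 222 in the others; 0.916) and Deptor in the orbital layer (449 in orbital capture 3, 333 to 345 in the others; 0.897). The others were Mrps25 in the global layer (244 in global capture 2, 183 to 188 in the others; 0.912) and Nhp2 in the global layer (162 in global capture 1, 183 to 184 in the others; 0.937). No gene's layer difference (0 of 9520 probe sets) differed between the title prefixes at an adjusted p under 0.05 by the interaction term in limma.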

How the results depend on the processing

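No called result changed sign (0) under any alternative run, and among values that did not pass the sign changed for Rack1 under 3 alternatives (-0.02 to 0.13 over all) and for Rps27l under 1 (-0.33 to 0.01). With its second probe set Rpl7l1 also changed sign, from 0.31 to -0.07. The count of members called higher, 1 with all captures, was 2 with quantile and with cyclic loess normalization (Rpl3 and Rpl13a), 0 with prefix R2 alone and 0 with prefix R3 alone, and 1 to 2 on leaving out 1 capture. The count called lower was 0 throughout. The count over all probe sets, 705, was 106 with prefix R2 alone and 170 with prefix R3 alone, fits that hold 2 captures per layer, and 461 (without global capture 3) to 725 on leaving out 1 capture. The median member difference was 0.08 to 0.15 on leaving out 1 capture. With the title prefix as a replicate block the Rpl3 difference passed (adjusted p = 0.00747 as a fixed and 0.00682 as a random term), 1 member was called higher and 0 lower, and 745 and 651 probe sets were called in all. The block ended the call of Nhp2 alone among the named members and genes of related lists. Fitting eBayes without the trend ended the calls of Sesn1, Prkaa2, Igf1, Mrps25, Mrpl15, Mrpl50, Nhp2 and Nop56. Without the filter on dim probe sets those of Prkaa2, Igf1, Nhp2 and Nop56 ended. Array weights ended those of Nhp2 and Nop56, and robust eBayes that of Nhp2. The Rpl3 call held under each of these settings. Averaging orbital captures 3 and 4, which carry nearly the same title, ended the calls of Sesn1 (adjusted p = 0.0564), Mrpl15 (0.0620), Mrpl50 (0.0660), Prkaa2 (0.0745), Nhp2 (0.0806) and Nop56 (0.0810), and the Rpl3 call held (0.00475). The labels do not say what the prefix stands for. Of 17 named genes called among the members and related lists, 8 kept their call on leaving out each capture in turn. The other 9 did not, all of them in related lists. The called skeletal muscle fibre markers Mb, Ttn and Pygm were not followed through the alternatives. Using only probe sets with the plain suffix left out Rpl3l and Rpl13a, and 1 member was called. Dim probe sets such as those of Rps4y2 and Rpl30 limit what can be said of these genes.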
